A study of Mus musculus with 4 samples.

Results

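Zfp57, a zinc finger protein known as a keeper of imprints, was examined together with 35 imprinted genes in the embryonic mouse brain. The RNA was from the whole brain at embryonic day 14.5, per the sample labels, while the series title names the spinal cord. The members were the probe sets whose gene symbol in the array annotation was exactly the name of 1 of these 36 genes. They comprised 86 of the 45037 probe sets that were not array controls, and covered 32 of the 36 genes, of 18193 genes named alone by a probe set. H19, Rtl1, Dio3 and Zrsr1 had no probe set under their symbol alone. Both double-knockout arrays came from embryos with Brn4::Cre and homozygous floxed Sox4 and Sox11 alleles, and both control arrays from embryos with the same floxed alleles and no Cre listed. All were of a mixed 129SvJ/C57Bl/6J background. Brn4 is another name of Pou3f4, so deletion is limited to cells in which that driver is or was active, and the labels do not say how complete it was, which sex the embryos were or how many embryos an array held. The p-values therefore measure only the spread between these arrays, and having 2 arrays a group limits the precision of every value.

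The members were named because of their known imprinting, but Zfp57 came to attention through its fall in the same comparison of knockout against control that is described here. The members' differences are therefore given as a description: no p-value is printed for a member, and nothing is supported by their counts. The p-values printed for other genes come from the same comparison. Those genes were listed or named with results of these data known, so their p-values are descriptive too. The words rose and fell mark genes past an adjusted p under 0.05 in limma fitted to all 27022 probe sets above a signal cutoff. Log2 differences are of log2(signal + 16), knockout minus control, with the moderated standard error (SE) of limma. This SE rests more on the spread of probe sets of similar signal than on a probe set's own arrays. The former has 8.33 degrees of freedom and the latter 2.

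An imprinted gene is expressed mainly from the allele inherited from 1 parent, through DNA methylation laid down in the germ line at control regions that often serve whole clusters of genes. ZFP57 binds the methylated hexamer TGCCGC at such control regions after fertilization and, with the corepressor TRIM28, keeps the methylation in place. In the embryonic brain, imprinted genes are known for roles in growth, neuronal differentiation and hypothalamic function. Total RNA does not tell the parental alleles apart, so the data hold total levels and no measure of imprinting itself.

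As a check of the genotype labels, each of 6 Sox11 probe sets fell, with log2 differences of -3.18 to -1.19, and of 6 tested Sox4 probe sets 4 fell, 1 rose and 1 did not pass, with differences of -2.69 to 1.83; the annotation used here does not say which of them read deleted sequence. Brain and neuronal genes such as Sox2, Neurod6 and Tubb3 were bright on all 4 arrays. Marker lists of other cell types differed between the groups. The summed signal of 8 microglia and macrophage genes was 20763 to 23081 on the knockout arrays and 5916 to 6826 on the control arrays, and all 8 rose. For 12 neuronal genes the sums were 127989 to 132923 on the knockout arrays and 153758 to 160701 on the control arrays, with 7 that fell and 2 that rose. Of 6 endothelial genes 5 rose, with sums of 8823 to 9393 on the knockout arrays and 6294 to 6979 on the control arrays. Over all genes tested 16.3% rose and 11.0% fell. None of 4 erythroid and 4 hypothalamic genes passed (limma, with 1 of each list at an unadjusted p under 0.05). The hypothalamic sums were 2675 and 3909 on the knockout arrays and 3522 and 3441 on the control arrays. The 2 knockout arrays were uneven, so nothing is read from that list. Whether the differences of the marker lists between the groups have a part in the members' values was not tested. In whole-brain RNA, fewer cells of a type and less RNA per cell cannot be told apart.

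Zfp57 had the largest difference among the tested members. Its probe set, 1450929_at, had signals of 184.8 and 84.6 on the knockout arrays and 494.6 and 599.6 on the control arrays. Both knockout values lay below both control values, and the log2 difference was -1.98 ± 0.31 (SE). Its size depended on the offset added to the signal, at -2.11 with 1 and -1.66 with 64. The probe set was dim: the mean knockout signal of 134.7 ± 70.9 lay below the cutoff of 154.6, the control mean was 547.1 ± 74.2 (SD, n = 2 each), and it passed the cutoff on account of the control arrays. The difference was -2.48 without knockout array 1 and -1.48 without knockout array 2. This gene was chosen for its fall, so no test of it is given.

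RefSeq annotates 3 Zfp57 starts on chromosome 17 of GRCm38.p6. Because Sox4 and Sox11 bind DNA through a high-mobility-group domain that recognises the cores ACAAAG and ACAATG, the 300 bases from 250 before to 50 after each start were searched for both cores on both strands. Of the 3 windows 1 held a match, shown in capitals as its reverse complement, at chr17:37000913-37001212 on the plus strand:
Zfp57: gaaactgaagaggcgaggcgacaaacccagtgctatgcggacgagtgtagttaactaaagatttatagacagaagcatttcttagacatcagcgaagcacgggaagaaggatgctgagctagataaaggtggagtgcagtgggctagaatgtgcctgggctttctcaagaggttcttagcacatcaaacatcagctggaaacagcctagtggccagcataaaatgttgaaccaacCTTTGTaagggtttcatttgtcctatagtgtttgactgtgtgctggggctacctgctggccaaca
Such a match is common. At least 1 core occurred in 28.6% of all 32851 promoter windows and in 12.8% of the 47 windows of the members, so the match describes the sequence and no binding.

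**Figure D1:**
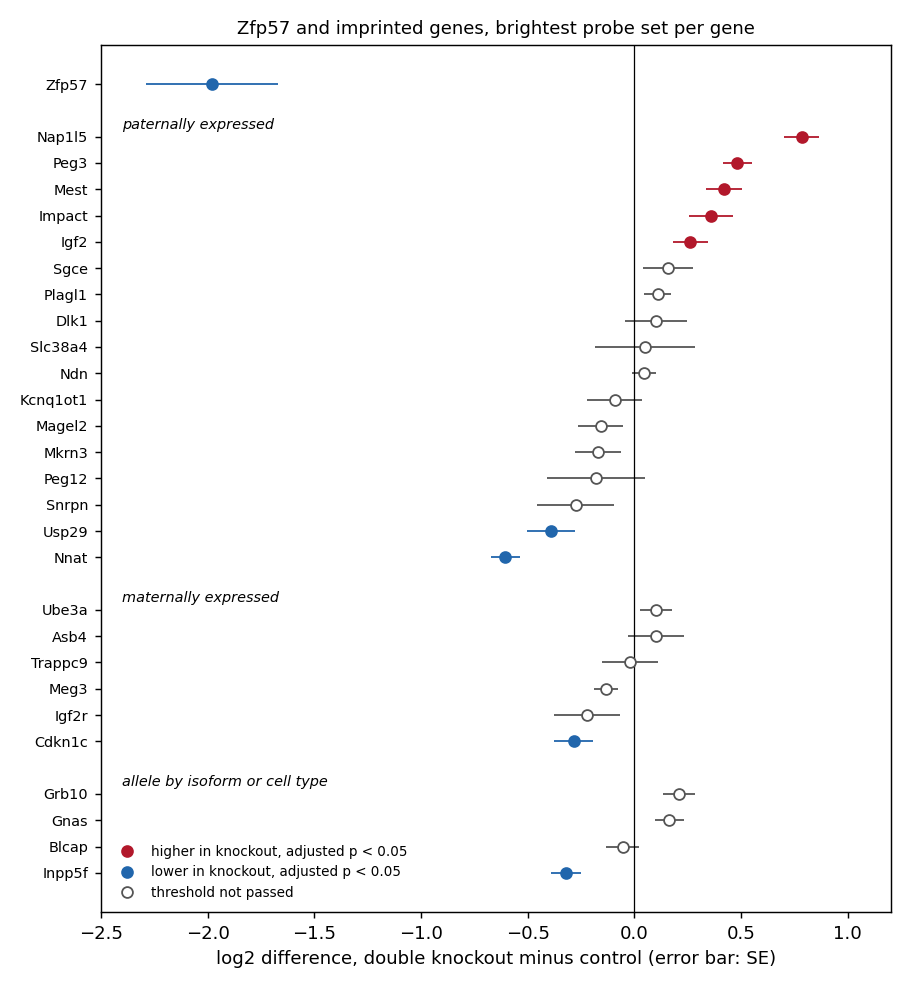
The log2 difference, double knockout minus control, of Zfp57 and each tested imprinted gene at its brightest probe set; points are estimates from 2 knockout and 2 control arrays, bars are SEs, and genes are grouped by the expressed allele. Zfp57 lies at -1.98, while the imprinted genes lie between -0.60 (Nnat) and 0.78 (Nap1l5).

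Of the 35 imprinted genes, 31 had a probe set and 27 had at least 1 above the signal cutoff. At the brightest probe set, 5 of these 27 rose, 4 fell and 18 did not pass, with a median log2 difference of 0.04. Over all 12489 genes tested, 16.3% rose, 11.0% fell and 27.3% changed in either direction, with a median of 0.06. The 2 groups did not overlap for 20 of the 27, against 66.9% of all genes. The shares of the imprinted genes are thus near those of all genes, and nothing is read from them. The imprinted genes that changed are described below by the allele from which they are known to be expressed in mouse.

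Of 21 paternally expressed genes, 18 had a probe set and 17 were tested: 5 rose, 2 fell and 10 did not pass. The 41.2% that changed stand beside 27.3% of all genes, of which 16.3% rose and 11.0% fell. With so few genes, nothing about the expressed allele is read from these counts. Nap1l5, a nucleosome assembly protein-like gene without introns, showed the largest rise. Its signals were 12761 and 13628 on the knockout arrays and 7184 and 8153 on the control arrays. The groups were well apart, and the log2 difference was 0.78 ± 0.08 (SE). Nap1l5 lies inside Herc3, a ubiquitin ligase gene that is not in the member set, in the RefSeq gene table. Herc3 had signals of 1445 and 1930 on the knockout arrays and 1090 and 1147 on the control arrays, and rose by a log2 difference of 0.57 ± 0.15 (limma adjusted p = 0.0187). Without knockout array 2 the Herc3 difference was 0.37 (limma adjusted p = 0.140), and it was 0.17 (limma adjusted p = 0.374) as the mean of its probe sets.

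The Nap1l5 promoter window, at chr6:58907077-58907376 on the minus strand of GRCm38.p6, holds the hexamer TGCCGC of ZFP57 at 2 places, in capitals:
Nap1l5: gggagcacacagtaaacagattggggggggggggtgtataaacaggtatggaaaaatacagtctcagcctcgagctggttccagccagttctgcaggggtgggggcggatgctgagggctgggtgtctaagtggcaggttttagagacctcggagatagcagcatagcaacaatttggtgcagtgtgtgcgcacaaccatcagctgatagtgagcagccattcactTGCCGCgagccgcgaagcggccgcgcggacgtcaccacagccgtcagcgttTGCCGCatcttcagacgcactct
Both strands were searched, where the reverse complement reads GCGGCA. The hexamer occurred in the windows of 9 of the 28 imprinted members with a promoter entry (32.1%), against 13.1% of all genes with an entry, or in 10 of 44 windows (22.7%), against 11.6% of all windows. These windows also held more CpG dinucleotides, with a median of 13.5 against 7 over all windows. No methylation was measured, and a match is given only as a description of the letters.

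Peg3 and Usp29 start within the same promoter region and moved in opposite directions. Peg3, a zinc finger protein with roles in maternal behaviour and growth, had signals of 16910 and 15645 on the knockout arrays and 11576 and 11715 on the control arrays at its brightest probe set. All 3 tested Peg3 probe sets rose, with log2 differences of 0.48, 0.58 and 0.62. In each the groups did not overlap, as in 62.9% of all probe sets tested. Usp29, a ubiquitin-specific protease, had signals of 1299 and 1309 on the knockout arrays and 1776 and 1657 on the control arrays. The knockout arrays lay below both controls, with a log2 difference of -0.39 ± 0.11 (SE). The Usp29 call was lost with any single array left out: the difference was -0.39 without knockout array 1, -0.40 without knockout array 2, -0.34 without control array 1 and -0.44 without control array 2. Zim1, a maternally expressed zinc finger gene of the same cluster, was below the cutoff. Its signals were 73.9 and 164.3 on the knockout arrays and 70.2 and 75.1 on the control arrays, so the groups overlapped.

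The 2 genes are annotated on opposite strands of chromosome 7 with starts 164 bases apart, and their promoter windows share 263 bases. The shared stretch is shown on the plus strand, the strand of Usp29, at chr7:6730370-6730632 of GRCm38.p6, with the bases from the Peg3 start to the Usp29 start in capitals:
Peg3-Usp29: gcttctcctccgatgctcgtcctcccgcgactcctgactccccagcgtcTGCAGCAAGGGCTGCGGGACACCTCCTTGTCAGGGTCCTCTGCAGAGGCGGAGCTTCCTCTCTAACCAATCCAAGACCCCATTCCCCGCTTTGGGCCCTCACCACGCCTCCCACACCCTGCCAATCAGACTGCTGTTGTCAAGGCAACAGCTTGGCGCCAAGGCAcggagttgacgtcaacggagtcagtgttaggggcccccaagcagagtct
Transcription of Peg3 runs to the left of the capitals and that of Usp29 to the right. Neither window held TGCCGC on either strand.

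**Figure D2:**
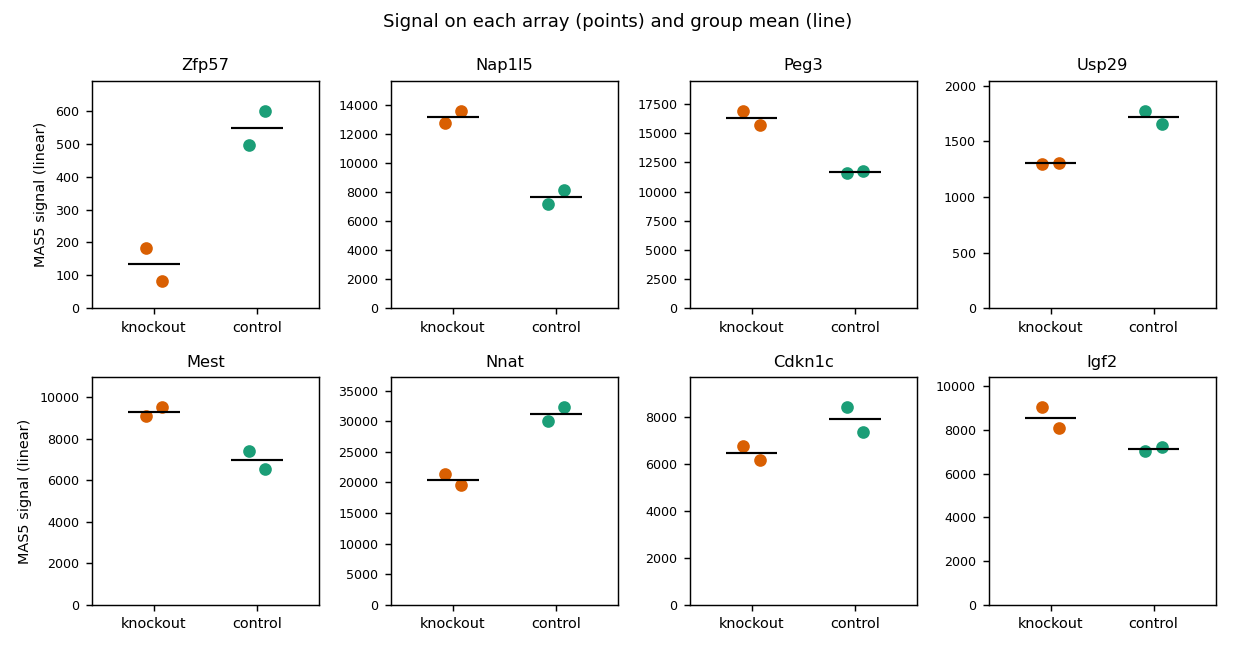
MAS5 signal, on a linear scale from 0, of 8 members on each knockout and control array (points), with the group mean as a line. All 8 were picked from members that rose or fell. The groups do not overlap in any panel, as in 66.9% of all genes tested. Peg3 (11576 to 16910) and Usp29 (1299 to 1776) differ in opposite directions.

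Mest, Impact and Igf2 were the other paternally expressed genes that rose. Mest, an alpha/beta hydrolase family gene of mesodermal tissue, had signals of 9100 and 9536 on the knockout arrays and 7407 and 6534 on the control arrays, a log2 difference of 0.42 ± 0.08 (SE). Impact, a regulator of the eIF2 kinase GCN2 that is abundant in neurons, had 3150 and 3413 on the knockout arrays and 2427 and 2690 on the control arrays, a difference of 0.36 ± 0.10. Igf2, a fetal growth factor, had 9037 and 8074 on the knockout arrays and 7043 and 7205 on the control arrays, a difference of 0.26 ± 0.08. In all 3 genes the groups were separate, as they were in 66.9% of all genes tested. The Igf2 call was lost without knockout array 1 (0.18), control array 1 (0.25) or control array 2 (0.28). Its other probe set, 1415931_at, was dim and differed by -0.50 ± 0.31 without passing, and the mean of both was -0.12. The Impact call was lost without knockout array 1 (0.42), knockout array 2 (0.30) or control array 1 (0.28).

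Igf2 and H19 share a cluster in which H19, a non-coding RNA, is expressed from the maternal allele and Igf2 from the paternal one. The 1 probe set that carries H19 is annotated to H19 and Mir675 together and so is no member. It had signals of 11583 and 10354 on the knockout arrays and 8385 and 9291 on the control arrays, a log2 difference of 0.31 ± 0.08 (SE), in the same direction as the bright Igf2 probe set. Igf2, H19, Mest and Dlk1 are known from mesenchyme, and Igf2 also from the choroid plexus and meninges. The 10 mesenchymal and meningeal genes had summed signals of 36288 to 37532 on the knockout arrays and 27541 to 27972 on the control arrays. The collagen genes Col3a1 and Col1a2 made up most of each sum. Of the 10, 5 rose, 0 fell and 5 did not pass (limma, with 7 up and 0 down at an unadjusted p under 0.05). Over all genes tested 16.3% rose and 11.0% fell. For 6 choroid plexus genes the sums were 46880 to 50372 on the knockout arrays and 44492 to 44825 on the control arrays, with 2 that rose and 1 that fell. Most of each sum was the signal of Ttr, which differed by 0.14 without passing, while the median log2 difference of the list was 0.44. None of these markers was at 0. Their part in the values of Igf2 and Mest was not tested.

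Mest has a promoter window at chr6:30737800-30738099 on the plus strand of GRCm38.p6 with the hexamer at 2 places, both as the reverse complement, in capitals:
Mest: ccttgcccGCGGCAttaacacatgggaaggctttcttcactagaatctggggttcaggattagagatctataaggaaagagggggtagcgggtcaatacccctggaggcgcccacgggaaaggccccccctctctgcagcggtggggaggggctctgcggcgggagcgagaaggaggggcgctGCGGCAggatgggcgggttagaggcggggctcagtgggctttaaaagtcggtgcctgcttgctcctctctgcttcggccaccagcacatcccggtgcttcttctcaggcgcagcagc
A further Mest window starts 3 bases away and holds the same 2 matches, and the window of a start farther upstream holds none. Mest overlaps Copg2, a coatomer gene that is no member and differed by 0.24 ± 0.10 without passing (limma adjusted p = 0.102).

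Nnat fell. Neuronatin is a small membrane proteolipid of the developing brain. Its signals were 21367 and 19584 on the knockout arrays and 29972 and 32306 on the control arrays. The knockout arrays lay well below both controls, and the log2 difference was -0.60 ± 0.07 (SE). Nnat lies inside Blcap, a gene whose isoforms differ in the expressed allele. Blcap had signals of 6659 and 6528 on the knockout arrays and 6756 and 6946 on the control arrays, a difference of -0.06 ± 0.08 that did not pass, with a 95% interval of -0.22 to 0.11. The 12 neuronal genes did not move 1 way: 7 fell, 2 rose and 3 did not pass, with log2 differences of -0.75 (Tubb3, limma adjusted p = 6.59e-05) to 0.62 (Snap25, limma adjusted p = 0.001) and a median of -0.35. The part of neuronal RNA in the Nnat value was not tested. The Nnat promoter window, at chr2:157559828-157560127 on the plus strand of GRCm38.p6, holds the hexamer once, as the reverse complement in capitals:
Nnat: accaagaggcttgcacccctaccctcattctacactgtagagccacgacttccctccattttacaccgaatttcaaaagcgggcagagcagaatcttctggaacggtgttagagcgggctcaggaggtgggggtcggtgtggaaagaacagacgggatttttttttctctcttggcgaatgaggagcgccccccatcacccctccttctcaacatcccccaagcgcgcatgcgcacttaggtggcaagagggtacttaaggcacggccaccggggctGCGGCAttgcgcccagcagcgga

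The calls of Nap1l5 and Nnat held in all 15 alternative settings, and those of Peg3 and Mest in all but the limma fit without a variance trend. That fit left Nap1l5 and Nnat as the imprinted members with a call. Median centring of the arrays ended the calls of Igf2, Usp29, Cdkn1c and Inpp5f, and a fit without a signal cutoff those of Igf2, Impact and Cdkn1c. The Igf2 call was also lost after quantile normalization (0.22), and the Impact call as the mean of its probe sets (0.15).

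The other 10 tested paternally expressed genes did not pass at their brightest probe set. Ndn and Magel2, members of the MAGE family, and Mkrn3, Peg12 and Snrpn lie in the cluster whose human counterpart is lost in Prader-Willi syndrome. Ndn had 30492 and 30100 on the knockout arrays and 29761 and 28993 on the control arrays, a log2 difference of 0.04 ± 0.05 with a 95% interval of -0.08 to 0.17. Magel2, Mkrn3, Peg12 and Snrpn differed by -0.28 to -0.16. The Snrpn probe set had 333.2 and 339.9 on the knockout arrays and 412.5 and 408.9 on the control arrays. Of the 5 tested probe sets annotated to Snurf and Snrpn together, which are no members, 4 differed by -0.11 to 0.08 without passing. The remaining one, 1441905_x_at, fell, with a difference of -0.56 ± 0.12. Ube3a, the maternally expressed ubiquitin ligase at the end of this cluster, did not pass at any of its 6 probe sets, which ranged from -0.64 to 0.13. At the brightest probe set of each gene, 0 of 8 measured genes in the cluster passed, the non-members Ipw and Atp10a included (limma; 0 at an unadjusted p under 0.05). Over all genes 27.3% changed. Peg12, Snrpn, Ipw and Atp10a were dim, with SEs of 0.18 to 0.30, so nothing is read from this count.

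Dlk1 and Plagl1 also did not pass. Dlk1, a Delta-like membrane protein that counters Notch signalling, had 2236 and 1781 on the knockout arrays and 2086 and 1654 on the control arrays, so the groups overlapped, with a log2 difference of 0.10 ± 0.15. Plagl1, a zinc finger factor that regulates other imprinted genes, had 19887 and 18948 on the knockout arrays and 18253 and 17761 on the control arrays, a difference of 0.11 ± 0.06. Sgce, a sarcoglycan, differed by 0.16 ± 0.12 and Kcnq1ot1, a long non-coding RNA that silences its cluster, by -0.09 ± 0.13. The other tested Sgce probe set differed by -0.39 without passing. Slc38a4, an amino acid transporter, was dim, with a difference of 0.05 ± 0.24. Peg10, a retrotransposon-derived gene next to Sgce, had a single probe set below the cutoff, at 102.8 and 99.5 on the knockout arrays and 112.5 and 80.3 on the control arrays.

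Of 10 maternally expressed genes, 9 had a probe set and 6 were tested: 0 rose and 1 fell (limma; 0 and 2 at an unadjusted p under 0.05). The 16.7% that changed stand beside 27.3% of all genes. With 6 genes, no difference from the paternally expressed genes is read from this. Cdkn1c, the cyclin-dependent kinase inhibitor p57 that lets progenitors leave the cell cycle, was the gene that fell. Its signals were 6779 and 6172 on the knockout arrays and 8426 and 7374 on the control arrays. The groups were separate, as in 66.9% of all genes tested, and the log2 difference was -0.28 ± 0.09 (SE). The Cdkn1c call was lost without knockout array 1 (-0.35), knockout array 2 (-0.22) or control array 1 (-0.19). Of 8 measured cell cycle genes, 6 rose and 1 fell, and their summed signals were 50386 to 51245 on the knockout arrays and 39754 to 42124 on the control arrays; whether this relates to Cdkn1c was not tested. Phlda2 and Ascl2, placental genes of the same cluster, were below the cutoff, with signals of at most 23.6 and 69.5.

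Meg3, a maternally expressed long non-coding RNA of the Dlk1-Dio3 cluster, was read by 11 probe sets, all tested. At the brightest it had 22132 and 21836 on the knockout arrays and 24280 and 23961 on the control arrays, a log2 difference of -0.13 ± 0.06 that did not pass. Of the 11, 4 fell, 0 rose and 7 did not pass, 9 were negative, and the range was -0.44 to 0.04. The largest fall was at the dimmest probe set, 1436057_at, with 1718 and 1624 on the knockout arrays and 2234 and 2297 on the control arrays. After quantile normalization the brightest probe set fell, with a difference of -0.18. Rian and Mirg, further non-coding RNAs of this cluster that are not members, differed by 0.14 and -0.09 and did not pass (limma adjusted p = 0.143 and 0.643). Igf2r, the receptor that clears Igf2, differed by -0.22 ± 0.15, Trappc9 by -0.02 ± 0.13 and Asb4 by 0.10 ± 0.13, and in each the groups overlapped.

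The other 4 imprinted genes were set apart because their expressed allele is known to depend on isoform or cell type. The split of the remaining genes by allele is a general one for mouse. It was not measured in these samples and may not hold in every cell type of the brain. Inpp5f, an inositol phosphatase with a paternally expressed short isoform in brain, fell at its brightest probe set, with 12206 and 12256 on the knockout arrays and 14571 and 16034 on the control arrays. The log2 difference was -0.32 ± 0.07 (SE). Another probe set fell, with a difference of -0.41, and the remaining one, which was dim, differed by 0.14 without passing. The Inpp5f call was lost without control array 2 (-0.25) and as the mean of its probe sets (-0.20). Grb10, an adaptor of growth factor receptors that is maternally expressed in most tissues and paternally in neurons, differed by 0.21 ± 0.07 without passing. Its other tested probe set differed by 0.04. A Grb10 probe set below the cutoff differed by -1.04, with 121.1 and 83.3 on the knockout arrays and 217.5 and 231.3 on the control arrays. Gnas, which encodes the stimulatory G protein alpha subunit, had 26177 and 23062 on the knockout arrays and 21937 and 21913 on the control arrays at its brightest probe set, a difference of 0.16 ± 0.07. Its 3 other tested probe sets differed by -0.52 to -0.42, and none of the 4 passed.

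**Figure D3:**
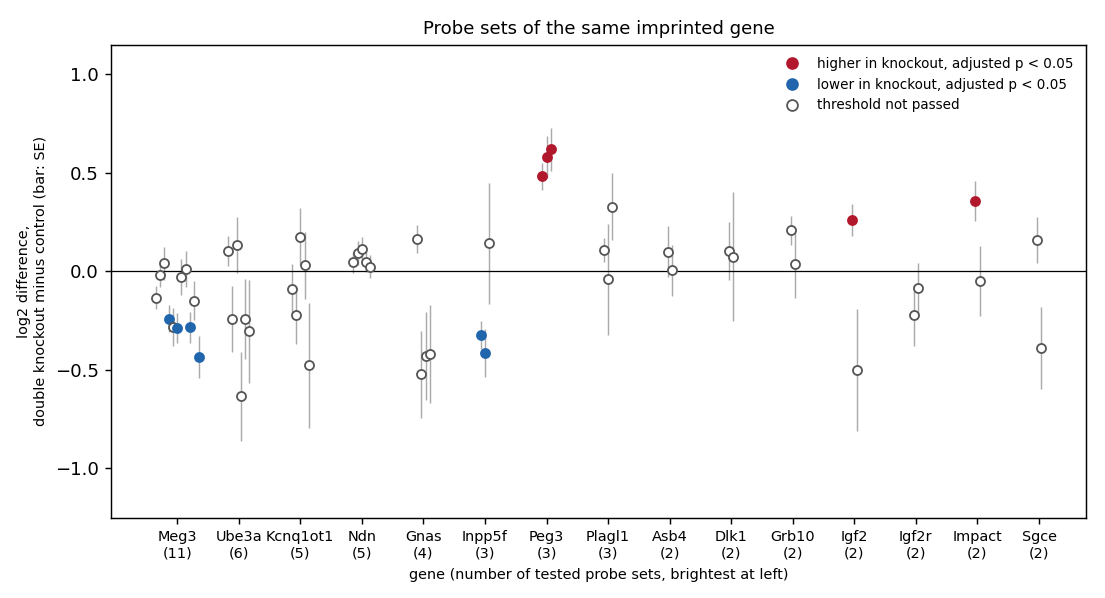
The log2 difference, double knockout minus control, of each tested probe set of the 15 imprinted genes with more than 1, ordered from the brightest at left within a gene. Bars are moderated SEs, with 2 arrays a group. All 3 Peg3 probe sets rose and 4 of 11 Meg3 probe sets fell, while those of Gnas lay on both sides of 0.

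Probe sets of the same gene often differed. Of the 15 imprinted genes with more than 1 tested probe set, 9 had estimates of both signs, 5 had at least 1 call, 3 had at least 2 calls and 0 had calls in both directions. Counted by probe set, 7 of the 67 tested member probe sets rose and 10 fell, a share of 25.4%, against 23.2% of all probe sets. Over all probe sets 11.7% rose and 11.6% fell. The groups did not overlap for 41 of the 67, against 62.9% of all probe sets. The 19 member probe sets below the cutoff had signals of 1.4 to 231.3. They were all the probe sets of Peg10, Phlda2, Zim1 and Ascl2, and dimmer ones of Peg3, Ndn, Grb10, Impact, Usp29, Kcnq1ot1, Slc38a4, Gnas and Trappc9.

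**Figure D4:**
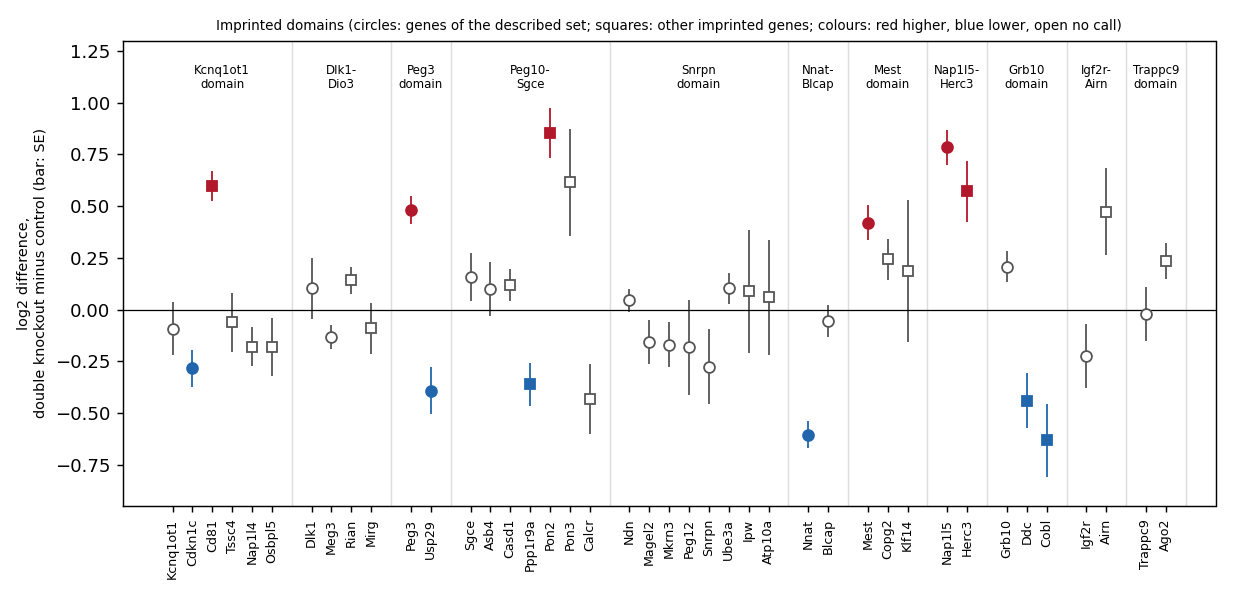
The log2 difference, double knockout minus control, of measured genes by imprinted cluster, for clusters with at least 2 measured genes; circles are members, squares are other imprinted genes, bars are SEs. Nap1l5 and Herc3 both rose, Peg3 rose while Usp29 fell, and none of the genes of the Snrpn cluster passed at its brightest probe set.

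Other imprinted genes were taken from a list of 42, of which 27 were measured: 7 rose, 3 fell and 17 did not pass, with a median log2 difference of 0.12. The list was not limited to genes known to be imprinted in brain, and a change here is one of total level. The 37.0% that changed stand beside 27.3% of all genes, of which 16.3% rose and 11.0% fell, and nothing particular to the list is read from this. The largest rise was that of Rasgrf1, a Ras exchange factor that is paternally expressed in brain. It had 1676 and 1515 on the knockout arrays and 551.5 and 514.8 on the control arrays, a log2 difference of 1.55 ± 0.13 (limma adjusted p = 7.11e-05). Pon2, a lactonase, rose by 0.86 ± 0.12 (limma adjusted p = 0.000932), and Cd81, a tetraspanin of the Kcnq1ot1 cluster, by 0.60 ± 0.07 (limma adjusted p = 0.000462). Herc3, described above, was the next in size. Commd1, in whose span the member Zrsr1 lies, rose by 0.32 ± 0.10 (limma adjusted p = 0.0427). Those that fell were Cobl, an actin nucleator (-0.63 ± 0.18, limma adjusted p = 0.0272), Ddc, aromatic amino acid decarboxylase (-0.44 ± 0.13, limma adjusted p = 0.037), both neighbours of Grb10, and Ppp1r9a, neurabin (-0.36 ± 0.11, limma adjusted p = 0.0317). Rasgrf1, Pon2 and Cd81 passed in each alternative, and each of the other 7 lost its call with at least 1 array left out. Of the 27, 3 changed without knockout array 2.

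Genes that maintain imprints or DNA methylation were taken from a list of 30, of which 24 were measured. Of these, 2 rose, 3 fell and 19 did not pass, with a median log2 difference of -0.06. The 20.8% that changed stand beside 27.3% of all genes, and with 24 genes nothing particular to the list is read from this. Trim28, the corepressor through which ZFP57 acts, had 12942 and 11383 on the knockout arrays and 11758 and 12288 on the control arrays. The groups overlapped, with a difference of 0.01 ± 0.08 and a 95% interval of -0.16 to 0.19 (limma adjusted p = 0.921). Zfp445, a second zinc finger protein that protects imprints, differed by -0.13 ± 0.07 (limma adjusted p = 0.215), and Dnmt1, the maintenance DNA methyltransferase, by -0.05 ± 0.10 (limma adjusted p = 0.724). Uhrf1, which brings Dnmt1 to newly replicated DNA, rose, with 2359 and 2562 on the knockout arrays and 1751 and 1713 on the control arrays (0.50 ± 0.11, limma adjusted p = 0.00748). Mbd2, a methyl-CpG binding protein, rose by 0.50 ± 0.13 (limma adjusted p = 0.0189). The 3 that fell were Ehmt1, a histone H3 lysine methyltransferase (-0.51 ± 0.10, limma adjusted p = 0.00435), Arid4b (-0.37 ± 0.10, limma adjusted p = 0.0227) and Cbx1, a heterochromatin protein (-0.29 ± 0.08, limma adjusted p = 0.0263). Uhrf1 did not pass without knockout array 2 (0.44), and Mbd2, Arid4b and Cbx1 each lost the call with at least 2 of the 4 arrays left out in turn. The count of changed genes was 2 without knockout array 1, 3 without knockout array 2 or control array 2, and 4 without control array 1.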

How the data were processed

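Whole-brain total RNA was hybridised to 4 Affymetrix arrays of 1 colour, 2 of each genotype. The authors deposited linear probe set intensities, and the submitters' processing notes name MAS5 (version 5.0). Their genome build was not given in the sources used here. Every array had a mean of 1000 once its top and bottom 2% were trimmed; a shift of most transcripts would thus be scaled away.

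The 64 control probe sets were left out. In the platform annotation 34945 probe sets had 1 symbol, 932 several and 9160 none. Probe sets were tested on log2(signal + 16) where the mean lay above the 40th percentile (7.41, a signal of 154.6). limma 3.58.1 (R 4.3.3) was fitted by lmFit and eBayes, with a mean-variance trend, a prior of 8.33 degrees of freedom beside the 2 residual ones, and Benjamini-Hochberg adjusted p-values over 27022 probe sets. A gene took its brightest tested probe set. The offset of 16 understates fold changes of dim genes. RefSeq (GRCm38.p6) gave promoters for 29 of 36 members.

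The members and lists were chosen with earlier results of these data known. Every member is accounted for. Of the other imprinted genes and of the maintenance genes, up to 4 that rose and 4 that fell were named by size of change, with Trim28, Dnmt1, Uhrf1 and Zfp445 always; neighbours of members and the brain and neuronal markers were named after their values were seen.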

Additional observations from a re-analysis of the deposited data

How the results depend on the processing

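The alternatives were 2 other normalizations, 2 other pseudocounts, 2 other filters, 2 other variance models, another threshold, leaving out single arrays, a block for the replicate number, averaging probe sets by gene, and assigning Grb10, Gnas and Blcap to the maternal and Inpp5f to the paternal class. Without a variance trend, 3114 probe sets changed, against 6277. Then 1 paternally expressed member rose, 1 fell and 0 maternally expressed ones fell, 4 of the other imprinted genes changed, and 0 of the maintenance genes (limma; 5 at an unadjusted p under 0.05). Without a filter, 3 paternally expressed members rose, 0 maternally expressed ones fell (limma; 1 at an unadjusted p under 0.05), and 3 genes of each other list changed. After median centring 1 paternally expressed member fell, 0 maternally expressed ones fell (limma; 0 at an unadjusted p under 0.05), and 3 maintenance genes changed. After quantile normalization 2 maternally expressed members fell. With the mean of probe sets 3 paternally expressed members rose, and Igf2 changed sign (-0.12). With 1 array left out, 3132 to 5422 probe sets changed, 3 to 4 paternally expressed members rose and 1 fell, 0 to 2 maternally expressed ones fell, and 3 to 7 other imprinted and 2 to 4 maintenance genes changed. In these fits the single array of a group is assumed to vary as the 2 of the other do. Zfp57 lay at -2.48 to -1.48 in them. With a filter at the 60th percentile Zfp57 was not tested. The deviations of same-numbered arrays from their group means were nearly uncorrelated (r = 0.003 over probe sets). With 2 arrays a group this cannot tell whether the replicate numbers pair the arrays, and the labels do not say. With the replicate block 6844 probe sets changed, against 6277. Zfp57 then differed by -1.98, and the counts of the members were as reported. Dim probe sets and 2 arrays a group limit what could be detected.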
